A study of Mus musculus with 37 samples.

Results

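Interferon response genes were followed in the livers of mice that carried a substitution at tyrosine Y665 of STAT5B, which relays signals of growth hormone and cytokine receptors to the genome. The set holds 42 genes, out of 24421 gene rows counted in each liver, chosen by symbol with earlier results of these data known. All 42 were among the 15152 genes with enough counts to be tested. By role they comprise 4 transcription factors of the pathway, 8 genes of the type I class (the Ifit, Oas and Mx families), 8 further antiviral effectors and regulators, 4 nucleic acid sensors, 14 genes of the interferon-gamma class (the Gbp and immunity-related GTPases and Cxcl9), 3 antigen processing genes and the chemokine gene Cxcl10. A total of 37 mice of strain C57BL/6, each 2 months old, gave 1 liver RNA library each. The groups were 6 wild-type (WT) males, 9 Y665F males, 4 Y665H males, 6 WT females, 6 Y665F females and 6 Y665H females, where Y665F and Y665H name the STAT5B substitution. The labels give no treatment for any group, and do not state whether the mice carried the substitution on one allele or on both.

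Type I interferons signal through the receptor chains IFNAR1 and IFNAR2 to a complex of STAT and IRF9 proteins that binds the interferon-stimulated response element. Interferon-gamma, made mainly by T cells and NK cells, signals through IFNGR1 and IFNGR2 to STAT dimers that bind a palindromic STAT element, and induces IRF1. The classes of target genes overlap widely. In the liver, hepatocytes as well as resident macrophages (Kupffer cells) and lymphocytes answer both signals, so a liver extract mixes their RNA.

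Many promoters of these genes carry the letters of one or the other element, and a few are shown here because they let the type I and the interferon-gamma class be compared by sequence. RefSeq promoters (build GRCm38.p6, the same build as mm10), which run from 250 bases before to 50 bases after a start site, were at hand for 32 of the 42 genes. Both strands were searched for GAAA followed after any 2 bases by GAAA, the core of the response element, and for TTCNNNGAA, a STAT element that reads the same on either strand. The response element core occurred in the promoters of 20 of the 32 genes (62.5%), against 3.99% of all 27025 genes in the table (3.44% of its 32851 promoters). The STAT element occurred in 11 of the 32 (34.4%), against 9.55% of all genes (8.3% of promoters). Both occurred in 8 of the 32, namely Bst2, Gbp5, Gbp7, Igtp, Irgm2, Oas1a, Tgtp1 and Tgtp2. Capitals in the stretches that follow mark the matched letters, each stretch reads 5′ to 3′ in the direction of its gene, and adjoining matches run together.

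From the type I class, the Oas1a stretch (chr5:120907526-120907635, minus strand) and the Ifit1 stretch (chr19:34640774-34640833, plus strand) are shown, with that of the ubiquitin-like effector Isg15 (chr4:156200864-156200913, minus strand). Oas1a has the highest Y665F male fold change of the type I genes in the promoter table.
Oas1a: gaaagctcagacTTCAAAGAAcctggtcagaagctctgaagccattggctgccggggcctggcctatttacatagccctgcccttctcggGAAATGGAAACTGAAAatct
Ifit1: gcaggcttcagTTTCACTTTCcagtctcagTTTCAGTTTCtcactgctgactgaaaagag
Isg15: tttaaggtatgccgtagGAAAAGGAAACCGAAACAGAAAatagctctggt

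From the interferon-gamma class, the guanylate-binding protein genes Gbp3 (chr3:142559974-142560023, plus strand) and Gbp7 (chr3:142530221-142530300, plus strand) lie in 1 cluster. Gbp3 has the highest Y665F male fold change of this class.
Gbp3: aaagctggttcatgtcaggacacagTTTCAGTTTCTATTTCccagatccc
Gbp7: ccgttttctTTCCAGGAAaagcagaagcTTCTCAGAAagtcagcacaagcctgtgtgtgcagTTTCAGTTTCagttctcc

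In the immunity-related GTPase genes Igtp (chr11:58199496-58199545, plus strand), Irgm2 (chr11:58214887-58214936, plus strand), Tgtp1 (chr11:48992300-48992349, minus strand) and Tgtp2 (chr11:49064259-49064308, minus strand), the STAT element and the response element core stand side by side.
Igtp: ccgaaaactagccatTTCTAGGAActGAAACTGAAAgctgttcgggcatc
Irgm2: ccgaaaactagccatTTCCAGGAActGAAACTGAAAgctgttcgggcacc
Tgtp1: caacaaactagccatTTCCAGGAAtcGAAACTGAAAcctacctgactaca
Tgtp2: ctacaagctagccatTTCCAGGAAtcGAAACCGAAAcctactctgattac
This joint arrangement (TTCNNNGAA, any 2 bases, then the core), searched on both strands and overlapping both single motifs by construction, occurred in 5 of the 32851 promoters (0.0152%), those of these 4 genes and of Gm12185, which is not in the set. It occurred in 4 of the 11 interferon-gamma genes and in none of the 5 type I genes in the table. Those 4 genes belong to the same family, lie on chromosome 11 and have alike letters beside the motifs. They are therefore not independent cases for a contrast of the classes. The core alone occurred in 9 of those 11 and 3 of those 5 genes, and the STAT element in 6 and 2. A match of letters describes the sequence and is not a measured binding site.

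The 42 genes lie on 15 chromosomes, 6 of them with a single member, and some of the families form clusters. Gbp5, Gbp7, Gbp3 and Gbp2 share a stretch of chromosome 3 (142496934 to 142638008), and 9 of the 42 genes lie on chromosome 11. Irgm1, Tgtp1, Tgtp2 and Ifi47 lie between 48865245 and 49096987 there, and Igtp and Irgm2 between 58199556 and 58222783. Ifit2, Ifit3 and Ifit1 lie between 34550550 and 34650009 of chromosome 19. Psmb9, Tap1 and Psmb8 lie between 34182030 and 34201454 of chromosome 17, and the start sites of Tap1 and Psmb9 stand 226 bases apart.

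Levels are given as CPM, the usual depth-scaled count of a gene, computed on library sizes after TMM scaling. The 19 male libraries held 49141951 to 73937726 counts assigned to genes and the 18 female ones 24388434 to 40864173, so depth followed sex without overlap. With all counts thinned to the smallest library, the same 30 genes of the set passed between WT males and WT females as without thinning. Of these, 28 were lower in males. The Y665F effect then differed between the sexes in 27 genes of the set, against 29 without thinning. Other differences in library making that may have followed sex were not tested. Reads in no annotated gene took 17.3% to 19.8% of the WT male files. That share was 13.9% to 19.9% for Y665F males and 11.9% to 15.9% for Y665H males. Female files had 9.59% to 14.7% (WT), 12.2% to 15.8% (Y665F) and 7.21% to 15.3% (Y665H). Kits of different makers are named for the libraries without saying which library had which. The liver label held: the 8 hepatocyte markers, Alb and Apoa1 among them, summed to between 61140 and 216000 CPM in every library, with Ass1 too low to be tested. Counts per gene cannot show the substitution itself. Nothing in the labels says how the mice of a group were related, so the p-values measure the spread between these animals. Over the genes tested, log2 CPM of WT males 2 and 4 correlated at r = 0.9967. WT males 1 and 5 reached 0.9963, and 3 and 6 reached 0.9961, against at most 0.9944 for other WT male pairs. The tests took all WT males as independent, and would give too small p-values if such pairs shared an origin, which was not tested.

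Per kilobase of exon, the median WT male liver held most transcript of Bst2, which encodes tetherin, a protein that holds budding virus at the cell surface, at 89.9 CPM per kilobase. Iigp1, an immunity-related GTPase gene, followed with 50.7 CPM per kilobase and Irgm2 with 14.1. Gbp5 was the lowest, at 0.255 CPM per kilobase. The same order held at the top in Y665F males for Bst2 (104 CPM per kilobase) and Iigp1 (61.0), and there Igtp (29.6) and Irgm2 (29.5) came next.

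The first comparison set Y665F males against WT males. Livers of Y665F males held more RNA of nearly the whole set: 39 of the 42 genes rose and none fell, with a median log2 fold change of 0.87. A gene is said to have risen or fallen when edgeR's quasi-likelihood test gave an adjusted p under 0.05 over all genes tested. Of all 15152 genes, 27.2% rose and 25.3% fell in this comparison, with a median log2 fold change of -0.01. In 26 of the 42 genes every Y665F male stood above every WT male, which held for 14.2% of all genes. The 3 genes that passed in neither direction were Irf1, Mx2 and Bst2.

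**Figure D1:**
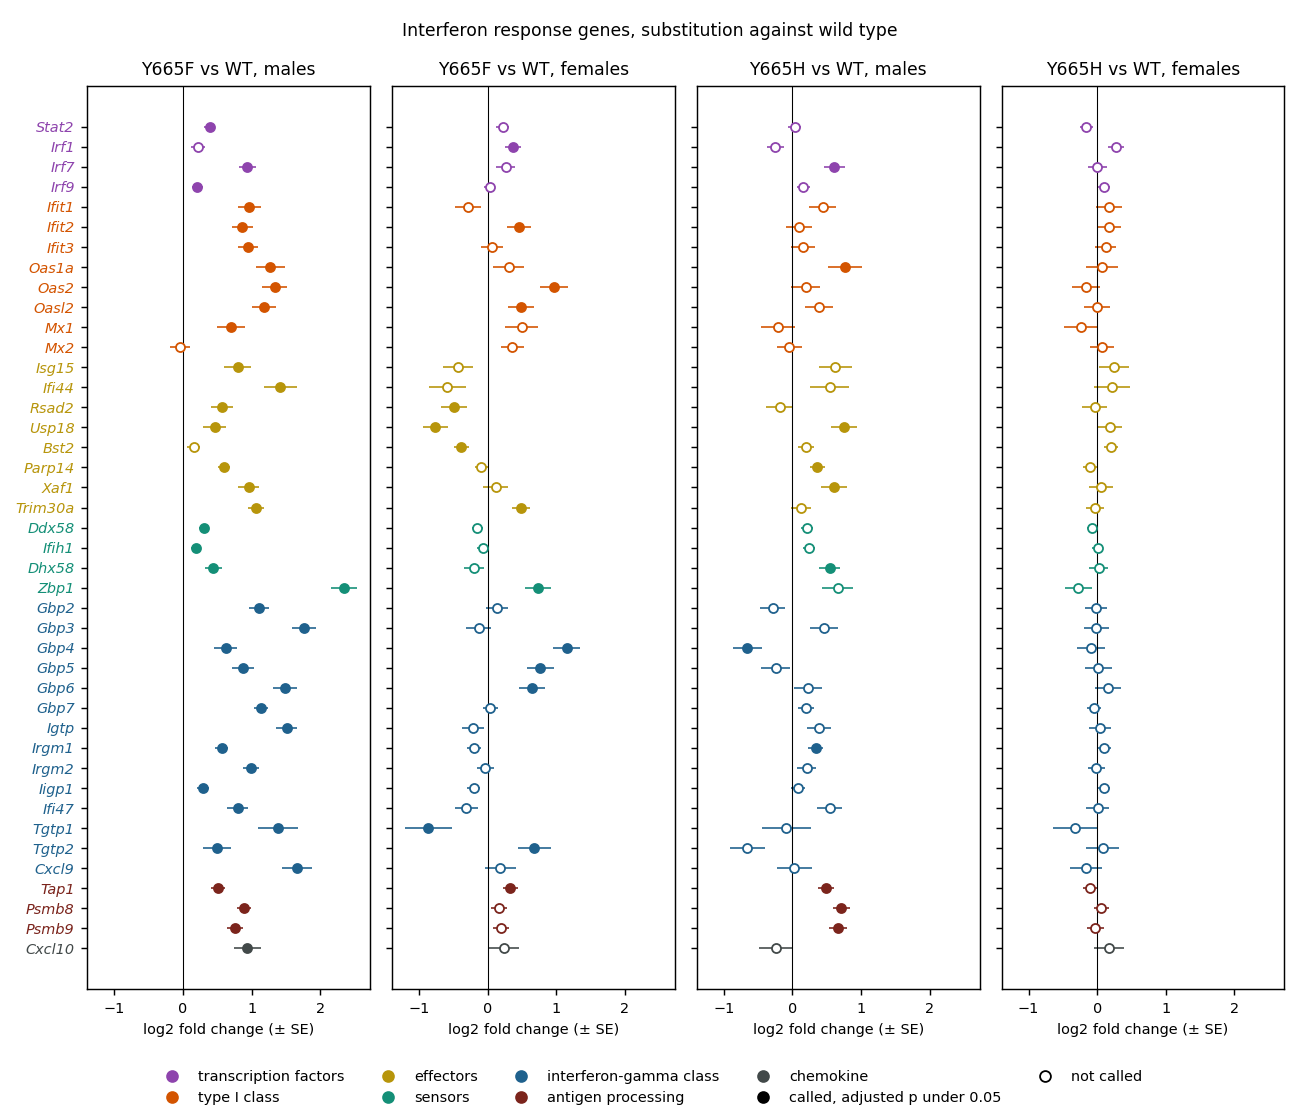
Log2 fold change (x axis, with SE) of each of the 42 genes (rows, coloured by role) for each substitution against WT in each sex; filled points passed an adjusted p under 0.05. In Y665F males 39 points are filled and all lie right of 0, in Y665F females 11 lie right and 4 left, in Y665H males 10 right and 1 left, and in Y665H females none is filled.

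Among the transcription factors, Irf7, which amplifies the type I response, showed the highest fold change. Its level ran from 24.8 to 31.1 CPM (median 26.7) in WT males and from 37.9 to 71.0 CPM (median 49.5) in Y665F males. The groups did not overlap, and the log2 fold change was 0.94 ± 0.13 (SE), adjusted p = 1.59e-07. Stat2, a subunit of the complex that binds the response element, rose by 0.39 ± 0.08, and Irf9, the DNA-binding subunit of that complex, by 0.21 ± 0.08 with overlapping groups (26.1 to 33.9 CPM in WT, 30.7 to 41.6 CPM in Y665F) and a call lost in 5 of 23 alternative fits. Irf1, the factor that interferon-gamma induces, ran from 32.4 to 47.2 CPM (median 43.4) in WT males and from 35.8 to 56.7 CPM (median 46.1) in Y665F males, and did not pass the test (0.22 ± 0.11, adjusted p = 0.0825).

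In the type I class 7 of 8 genes rose. Oas2, which makes the 2′-5′ oligoadenylate messenger that activates RNase L, ran from 2.69 to 4.13 CPM (median 3.55) in WT males and from 6.41 to 16.8 CPM (median 7.86) in Y665F males. All 9 Y665F livers lay above all 6 WT livers, and the log2 fold change was 1.34 ± 0.18, adjusted p = 1.03e-07. The related Oas1a (1.27 ± 0.21) and Oasl2 (1.18 ± 0.17) rose to a similar extent. The Ifit genes, whose products bind viral RNA, rose by 0.96 (Ifit1), 0.86 (Ifit2) and 0.95 (Ifit3). Mx2 did not rise: it ran from 4.62 to 6.76 CPM (median 6.15) in WT males and from 4.15 to 10.2 CPM (median 4.96) in Y665F males, at -0.04 ± 0.14. Mx1 rose by 0.70 ± 0.20 with overlapping groups. RefSeq lists both Mx1 and Mx2 as transcribed pseudogenes in the reference assembly, which is of the C57BL/6 strain.

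Of the 8 effectors and regulators 7 rose. Ifi44 stood highest, from 1.77 to 3.56 CPM (median 2.18) in WT males and from 4.01 to 13.2 CPM (median 5.95) in Y665F males, with no overlap and a log2 fold change of 1.42 ± 0.24 (adjusted p = 7.06e-06). Trim30a followed at 1.06 ± 0.12, Xaf1 at 0.96 ± 0.16 and Isg15, a ubiquitin-like modifier, at 0.80 ± 0.20. Usp18, which removes ISG15 from proteins and dampens type I receptor signalling, rose by 0.46 ± 0.16 with overlapping groups, from 6.98 to 11.0 CPM in WT and 7.69 to 20.0 CPM in Y665F, and its call was lost in 4 of 23 alternative fits. Bst2, the most abundant per length, ran from 71.5 to 92.6 CPM (median 81.2) in WT males and from 76.97 to 102.6 CPM (median 93.4) in Y665F males, and did not pass (0.16 ± 0.10, adjusted p = 0.172).

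All 4 sensors rose, by very different amounts. Zbp1, a sensor of Z-form nucleic acids, had the highest fold change of the whole set. Its level ran from 2.48 to 3.61 CPM (median 3.05) in WT males and from 11.1 to 23.4 CPM (median 14.9) in Y665F males. The lowest Y665F liver stood far above the highest WT liver, with a log2 fold change of 2.35 ± 0.19 (adjusted p = 1.24e-12). The cytoplasmic RNA sensors moved far less: Ddx58 (RIG-I) rose by 0.30 ± 0.07, Dhx58 (LGP2) by 0.44 ± 0.12 and Ifih1 (MDA5) by 0.19 ± 0.07. The Ifih1 groups overlapped, at 41.7 to 51.8 CPM in WT and 47.3 to 59.3 CPM in Y665F, and the Ifih1 call was lost in 7 of 23 alternative fits (highest adjusted p = 0.122).

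The interferon-gamma class rose in all 14 of its genes, although the Tgtp2 call was lost in 8 of 23 alternative fits (highest adjusted p = 0.141). Gbp3 ran from 3.30 to 6.95 CPM (median 4.89) in WT males and from 11.4 to 21.5 CPM (median 17.1) in Y665F males. These groups stood well apart, with a log2 fold change of 1.76 ± 0.18 (adjusted p = 2.4e-10). Cxcl9, a chemokine that draws activated T cells, ran from 3.495 to 7.22 CPM (median 6.31) in WT males and from 12.2 to 31.2 CPM (median 17.2) in Y665F males. Its groups did not overlap either, at 1.66 ± 0.21 (adjusted p = 5.07e-08). Igtp (1.51), Gbp6 (1.48), Tgtp1 (1.38), Gbp7 (1.14) and Gbp2 (1.11) came next on the log2 scale. The lowest in the class was Iigp1, at 255 to 316 CPM (median 295) in WT males and 300 to 426 CPM (median 355) in Y665F males, with overlapping groups and a log2 fold change of 0.29 ± 0.09 (adjusted p = 0.00394).

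The 3 antigen processing genes, which share a stretch of chromosome 17, all rose without overlap. Psmb8, a subunit of the immunoproteasome, ran from 13.7 to 18.4 CPM (median 17.0) in WT males and from 26.2 to 36.1 CPM (median 29.8) in Y665F males, at 0.89 ± 0.11 (adjusted p = 7.36e-09). Psmb9 rose by 0.76 ± 0.11. Tap1, which carries peptides into the endoplasmic reticulum, ran from 25.4 to 33.2 CPM (median 29.7) and from 36.8 to 50.9 CPM (median 40.6), at 0.51 ± 0.10. Cxcl10 ran from 1.46 to 2.78 CPM (median 1.95) in WT males and from 2.11 to 5.82 CPM (median 3.79) in Y665F males, overlapping, at 0.94 ± 0.20 (adjusted p = 0.000129).

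The type I and interferon-gamma classes were then set against each other in Y665F males. The median log2 fold change was 0.96 in the type I class and 1.05 in the interferon-gamma class, a difference of -0.09. Leaving out 1 library moved this difference to between -0.145 (without Y665F male 2) and -0.043 (without Y665F male 6), and it was -0.03 with the share of reads in no annotated gene as a covariate. In single livers, the mean log2 CPM of the type I class above that of the WT male mean was 0.86 ± 0.35 (SD, n = 9), and that of the interferon-gamma class 1.06 ± 0.26 (SD, n = 9). The difference between the classes in a liver was -0.19 ± 0.26 (SD, n = 9) for Y665F males, against 0.00 ± 0.18 (SD, n = 6) for WT males. It was below 0 in 7 of 9 Y665F males and in 4 of 6 WT males, and the groups overlapped. Y665F male 2 stood highest for the type I class, at 1.60, while Y665F male 6 stood highest for Cxcl9.

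The library of Y665F male 2 stood apart from its group. Across genes its log2 CPM correlated with the other Y665F males at r = 0.982 to 0.988, against at least 0.991 for the pairs without it. Its share of reads in no annotated gene was 19.9%, the next highest being 16.8%. It also had the highest sums of its group for the Kupffer cell and macrophage (791 CPM), neutrophil (9.44 CPM, next 5.05 CPM) and plasmacytoid dendritic cell (51.4 CPM, next 43.1 CPM) markers. Without it 37 of the 42 genes rose in Y665F males, and the calls of Usp18 (0.34, adjusted p = 0.0507) and Ifih1 (0.17, adjusted p = 0.0568) were lost.

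**Figure D2:**
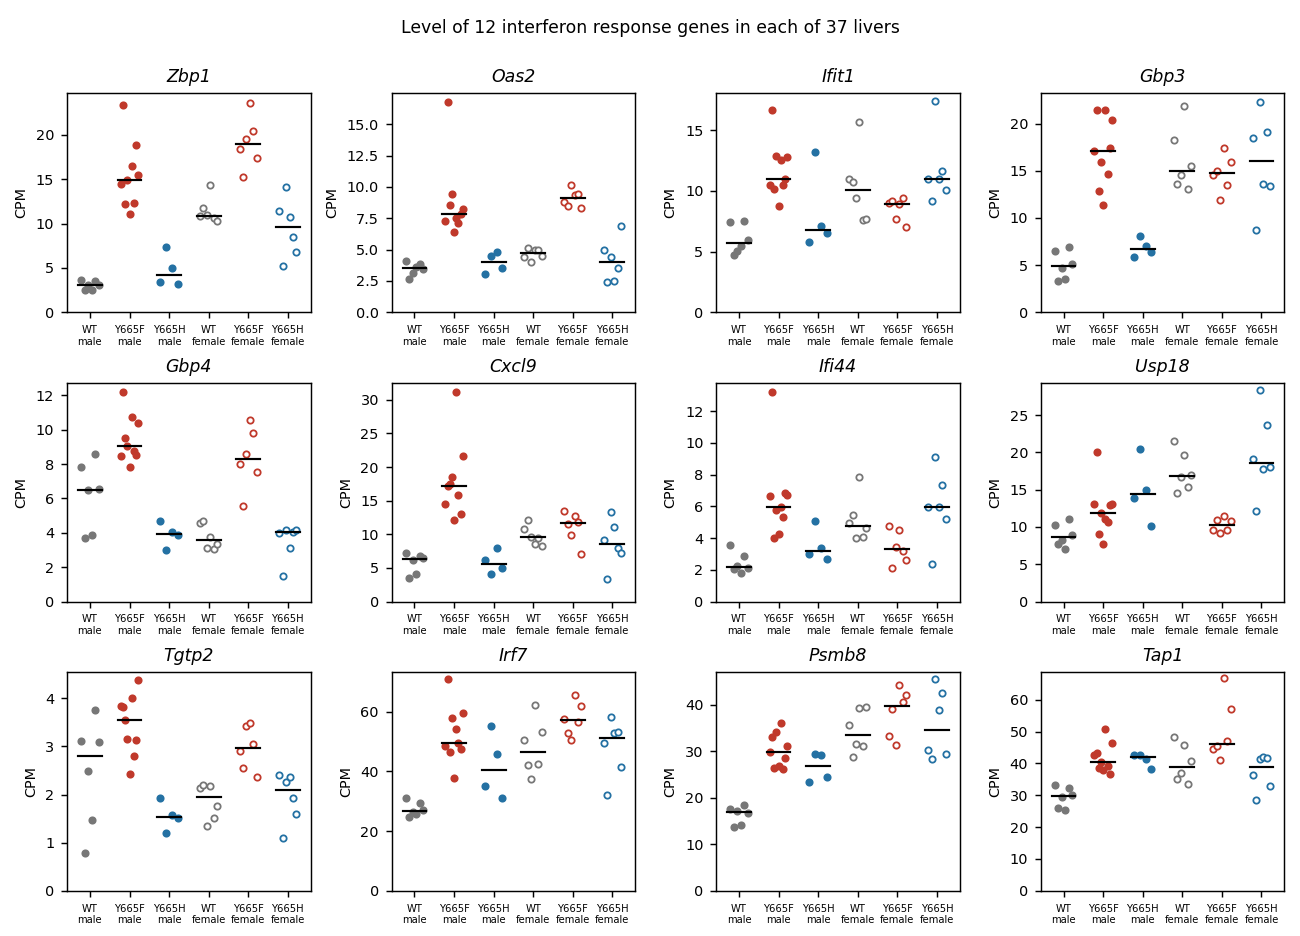
CPM (y axis, from 0) of 12 of the genes in each of the 37 livers, by group (x axis; filled points are males, open points females); the bar is the group median. Zbp1 and Gbp3 have their lowest medians in WT and Y665H males, while Gbp4 has its highest in Y665F livers of both sexes and Usp18 is lower in Y665F females than in the other female groups.

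Markers of other liver cells moved along with the set in Y665F males. Summed over the 11 counted of 12 T and NK cell markers, the level ran from 3.15 to 5.71 CPM in WT males and from 8.77 to 20.6 CPM in Y665F males, and 10 of 11 markers rose, among them Cd8a at 3.59 and Gzmb at 3.71 on the log2 scale. The 10 Kupffer cell and macrophage markers summed to 208 to 311 CPM in WT males and 338 to 791 CPM in Y665F males, and all 10 rose. The 4 B cell markers ran from 1.68 to 3.15 CPM and from 4.39 to 8.88 CPM, and the 5 monocyte markers from 2.15 to 2.74 CPM and from 5.44 to 9.67 CPM. The 8 hepatocyte markers summed to 70850 to 79010 CPM and 117200 to 132300 CPM, although 4 of the 7 tested fell and 1 rose. In the plasmacytoid dendritic cell list, a cell that makes type I interferon, 1 of 4 tested markers rose (Irf8) and 1 fell (Ccr9), and Siglech did not pass (0.28 ± 0.22). That list of 6 summed to 32.5 to 35.2 CPM in WT males and 38.5 to 51.4 CPM in Y665F males, without overlap. Of the 7 tested neutrophil markers 6 rose, and the list summed to 0.381 to 0.883 CPM in WT males, where Mpo was at 0 to 2 counts and Ngp at 0 to 1 count, and to 1.66 to 9.44 CPM in Y665F males. In bulk tissue, more cells of a type and more RNA per cell cannot be told apart, and the part of these cells in the rise of the interferon genes was not tested.

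**Figure D3:**
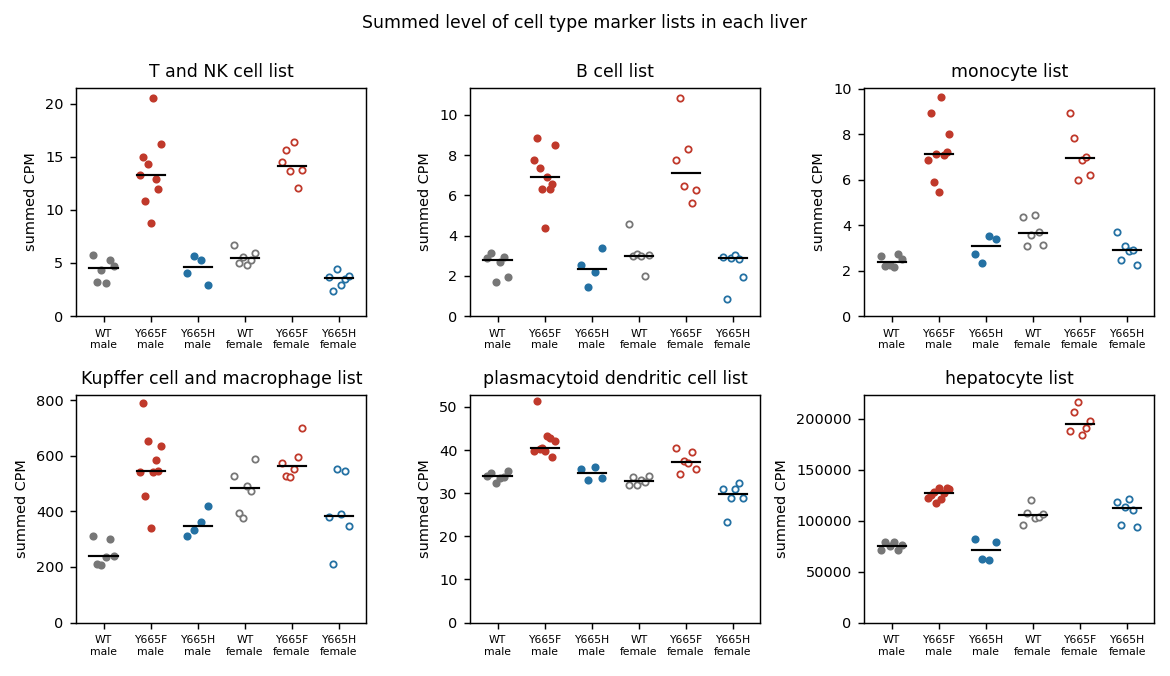
Summed CPM (y axis, from 0) of 6 cell marker lists in each of the 37 livers, by group (x axis; filled points are males, open points females); the bar is the group median. The T and NK cell, B cell and monocyte lists are higher in Y665F livers of both sexes without overlap with WT, while the Kupffer cell and macrophage list has its lowest median in WT males (238 CPM) and overlaps between WT and Y665F females.

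The same substitution was then compared with WT in females. Here the set did not move as a whole: 11 of 42 genes rose (26.2%) and 4 fell (9.52%), against 17.8% and 23.3% of all genes tested, and the median log2 fold change was 0.13. In 6 genes every Y665F female lay above every WT female, against 9.09% of all genes, and in 1 gene, Usp18, every one lay below, against 10.8% of all genes. Genes of 1 family parted from each other.

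Oas2 rose in females too. WT females had 4.03 to 5.13 CPM (median 4.73) and Y665F females 8.36 to 10.1 CPM (median 9.09), with no overlap and a log2 fold change of 0.97 ± 0.20 (adjusted p = 0.000171). Ifit1 did not pass, at 7.62 to 15.6 CPM (median 10.1) in WT and 7.02 to 9.40 CPM (median 8.95) in Y665F, a log2 fold change of -0.28 ± 0.19. Oasl2 (0.48 ± 0.19) and Ifit2 (0.45 ± 0.18) were the other type I genes that rose, and both calls were unsteady, lost in 9 and 8 of 20 alternative fits. Leaving out Y665F female 1 gave adjusted p = 0.101 for Oasl2 and 0.0866 for Ifit2.

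Gbp4 rose most in females. It ran from 3.04 to 4.69 CPM (median 3.56) in WT females and from 5.55 to 10.6 CPM (median 8.29) in Y665F females, all above WT, at 1.15 ± 0.20 (adjusted p = 1.63e-05). Gbp5 (0.77 ± 0.20), Gbp6 (0.64 ± 0.19) and Tgtp2 (0.68 ± 0.24) also rose, whereas Gbp3 (-0.13 ± 0.19), Gbp2 (0.14 ± 0.16) and Gbp7 (0.04 ± 0.10) did not pass. Tgtp1, the near copy of Tgtp2, went the other way, from 3.53 to 7.55 CPM (median 5.11) in WT to 2.37 to 4.30 CPM (median 2.88) in Y665F, at -0.86 ± 0.34 (adjusted p = 0.04). The groups overlapped, and the Tgtp1 call was lost in 13 of 20 alternative fits (highest adjusted p = 0.146). Reads that fit both copies were not counted, so the split between Tgtp1 and Tgtp2, and between near-identical Gbp genes, is uncertain.

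Among the effectors, 3 of 8 fell in females. Usp18 ran from 14.6 to 21.5 CPM (median 16.8) in WT females and from 9.19 to 11.5 CPM (median 10.2) in Y665F females, with no overlap and a log2 fold change of -0.77 ± 0.18 (adjusted p = 0.000984). Bst2 fell by 0.38 on the log2 scale (SE 0.11, adjusted p = 0.0038). Rsad2, which encodes viperin, was at -0.49 ± 0.19 (adjusted p = 0.0358) and lost its call in 10 of 20 alternative fits. Trim30a alone rose, from 8.11 to 10.3 CPM (median 9.86) to 11.4 to 14.3 CPM (median 13.9), without overlap, at 0.49 ± 0.13.

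Zbp1 rose again among the sensors, with 10.3 to 14.4 CPM (median 10.9) among WT females and 15.3 to 23.6 CPM (median 18.9) among Y665F females, at 0.73 ± 0.19 (adjusted p = 0.00219). Dhx58 did not pass, at 10.3 to 15.5 CPM (median 11.7) in WT and 8.81 to 11.8 CPM (median 10.9) in Y665F (-0.20 ± 0.14). Irf1, at 31.8 to 50.5 CPM (median 43.1) in WT and 42.4 to 64.4 CPM (median 52.6) in Y665F, rose by 0.36 ± 0.12 with overlapping groups (adjusted p = 0.0123). Tap1 rose by 0.33 ± 0.11, a call that leaving out Y665F female 4 removed (adjusted p = 0.0761), and Psmb8 (0.16 ± 0.11), Psmb9 (0.19 ± 0.12) and Cxcl10 (0.23 ± 0.22) did not pass.

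In Y665F females the median log2 fold change was 0.41 in the type I class and 0.00 in the interferon-gamma class. The difference between the classes in a liver was 0.24 ± 0.10 (SD, n = 6), against 0.00 ± 0.10 (SD, n = 6) in WT females. It ran from 0.11 to 0.36 in the Y665F females and from -0.09 to 0.19 in the WT females, so the groups overlapped. It was above 0 in all 6 Y665F females and in 3 of 6 WT females. With the share of reads in no annotated gene as a covariate, the difference between the class medians was 0.21 in place of 0.40.

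**Figure D4:**
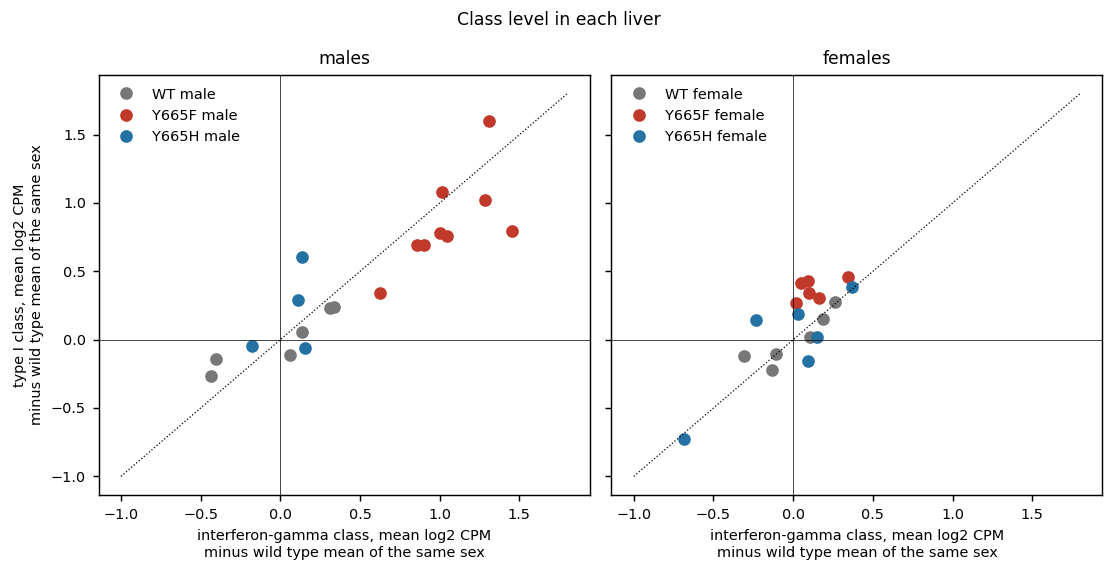
Mean log2 CPM of the type I class (y axis) against that of the interferon-gamma class (x axis) in each liver, both relative to the WT mean of the same sex, males left and females right; the dotted line marks equal change. The 9 Y665F males lie to the upper right of every WT male along the line, and the 6 Y665F females lie above the line with interferon-gamma class values between 0.02 and 0.35.

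Lymphocyte and monocyte markers were higher in Y665F females as well. The T and NK cell list ran from 4.81 to 6.69 CPM in WT females and from 12.1 to 16.4 CPM in Y665F females, with all 11 markers risen. The Kupffer cell and macrophage list ran from 375 to 588 CPM and from 525 to 700 CPM, overlapped, and had 0 of 10 markers past the edgeR test. Only Marco had an unadjusted p under 0.05 (0.76 ± 0.37, adjusted p = 0.0995), and no other tool was summarised for these lists. The hepatocyte list ran from 96040 to 120700 CPM and from 184300 to 216000 CPM, without overlap, although 2 of the 7 tested markers rose (Alb and Tat) and 3 fell. The plasmacytoid dendritic cell list ran from 31.8 to 34.0 CPM and from 34.5 to 40.4 CPM, also apart, with 1 of 4 tested markers risen (Irf8). Their part in the female values was not tested.

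The Y665F effect itself differed between the sexes in 29 of the 42 genes, and in each of them it was higher in males. Of all genes tested, 16.1% had a higher effect in males and 11.5% a lower one. The difference was greatest on the log2 scale for Tgtp1 (2.25 ± 0.45, adjusted p = 0.000268) and Ifi44 (2.01 ± 0.36, adjusted p = 6.52e-05), followed by Gbp3 (1.898 ± 0.25), Igtp (1.73 ± 0.22) and Zbp1 (1.62 ± 0.26). In the interferon-gamma class 11 of 14 genes differed, and Gbp4 (-0.53 ± 0.26), Gbp5 (0.11 ± 0.26) and Tgtp2 (-0.18 ± 0.31) did not pass. In the type I class 4 of 8 differed (Ifit1, Ifit3, Oas1a and Oasl2), and Oas2 did not pass (0.37 ± 0.26). The Oasl2 difference was lost in 18 of 35 alternative fits.

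**Figure D5:**
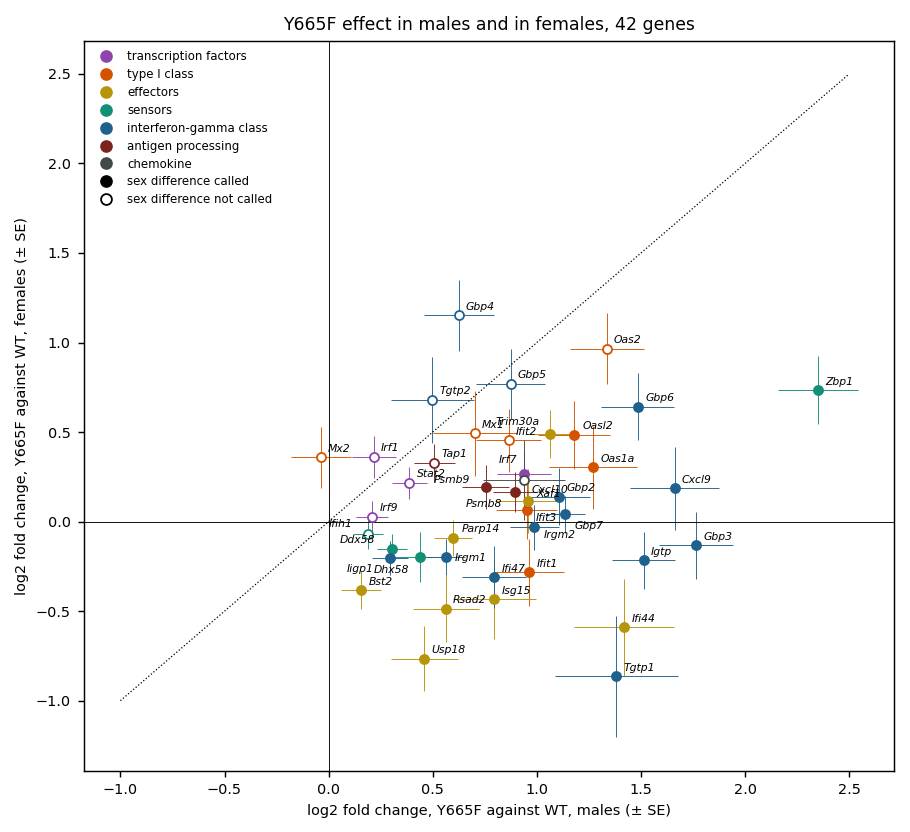
Log2 fold change of Y665F against WT in females (y axis) against that in males (x axis), with SE, for the 42 genes coloured by role; filled points passed the test of the difference between the sexes, and the dotted line marks equal effects. The 29 filled points lie below the line, with Tgtp1 and Ifi44 farthest from it, while Gbp4 and Tgtp2 lie above it and are open.

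Without any substitution, livers of WT males and WT females already differed. In WT males 28 of the 42 genes were lower than in WT females and 2, Gbp4 (0.71 ± 0.20) and Mx2 (0.39 ± 0.17), were higher, against 26.8% lower and 23% higher among all genes. In 18 of the 42 no WT male reached the level of any WT female, against 15.7% of all genes. Zbp1 was lower by the widest margin (-1.92 ± 0.20, adjusted p = 1.51e-09), then Gbp3 (-1.69 ± 0.19), Igtp (-1.20 ± 0.16), Ifi44 (-1.09 ± 0.26) and Psmb8 (-1.07 ± 0.11). The Mx2 call was lost in 11 of 20 alternative fits. With the share of reads in no annotated gene as a covariate, 16 genes passed, all lower in males, and this share too did not overlap between WT males and WT females.

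The male and female values of the same gene can be read side by side. The Gbp3 median was 4.89 CPM for WT males, 15.0 CPM for WT females, 17.1 CPM for Y665F males and 14.7 CPM for Y665F females. Igtp had medians of 22.0, 45.3, 59.8 and 40.2 CPM in the same order, and Psmb8 had medians of 17.0, 33.5, 29.8 and 39.8 CPM. Over the 42 genes, the median of the Y665F males lay within the range of the WT females in 27, among them Gbp3, Igtp and Psmb8. It lay above every WT female in 14, among them Zbp1 (14.9 against at most 14.4 CPM), Cxcl9 (17.2 against 12.1 CPM) and Oas2 (7.86 against 5.13 CPM), and below every one in Usp18. Gbp4 followed another order, at 6.52, 3.56, 9.04 and 8.29 CPM. The Kupffer cell and macrophage list, at 238 CPM in the median WT male and 483 CPM in the median WT female, was lower in WT males for all 10 of its markers. The monocyte list (2.15 to 2.74 against 3.08 to 4.43 CPM) and the hepatocyte list (70850 to 79010 against 96040 to 120700 CPM) were also lower in WT males without overlap. The T and NK cell and B cell lists overlapped between WT males and WT females. The part of these cells in the difference between the sexes was not tested. The comparison of the sexes in WT mice shares its livers with the comparisons of the substitutions, so the values stand side by side without a test.

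The other substitution, Y665H, moved fewer of the genes. In the 4 Y665H males 10 of 42 genes rose (23.8%) and 1 fell (2.38%), against 5.22% and 3.18% of all genes, with a median log2 fold change of 0.21. In 5 genes the Y665H males lay above every WT male, against 6.75% of all genes. The antigen processing genes had the firmest values. Psmb8 stood at 23.4, 29.4, 29.1 and 24.5 CPM in the Y665H males, all above the highest WT male (18.4 CPM), with a log2 fold change of 0.71 ± 0.12 (adjusted p = 0.00038). Psmb9 stood at 16.9, 18.7, 18.2 and 16.2 CPM against 8.43 to 13.8 CPM in WT, again without overlap (0.66 ± 0.13, adjusted p = 0.00203). Tap1 stood at 42.6, 42.7, 41.5 and 38.1 CPM, also above all WT males (0.49 ± 0.12, adjusted p = 0.00897). All 3 antigen processing genes were thus higher in every Y665H male.

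Irf7 stood at 35.1, 55.2, 45.7 and 31.2 CPM in the Y665H males, the lowest of them just above the highest WT male (31.1 CPM), and rose by 0.61 ± 0.15 (adjusted p = 0.0113). Irf1 did not pass, at 40.9, 30.5, 34.5 and 32.2 CPM (-0.25 ± 0.13). Usp18 stood at 13.9, 20.4, 15.0 and 10.1 CPM, overlapped WT and rose by 0.75 ± 0.19 (adjusted p = 0.014). Y665H male 2 was the highest of the 4 for Irf7, Usp18 and all antigen processing genes.

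In the type I class only Oas1a passed, at 2.37, 4.60, 4.10 and 2.34 CPM and a log2 fold change of 0.77 ± 0.25 (adjusted p = 0.0495), and that call was lost in 14 of 18 alternative fits. In the interferon-gamma class Irgm1 rose by 0.34 ± 0.11 (adjusted p = 0.0483) and Gbp4 fell, at 4.72, 2.99, 4.03 and 3.87 CPM against 3.69 to 8.57 CPM in WT (-0.66 ± 0.21, adjusted p = 0.0459). The calls of Irgm1 and Gbp4 were lost in 14 and 13 of 18 alternative fits. Ifi47, at 17.0, 30.0, 23.2 and 12.7 CPM, had the highest log2 fold change of the class and did not pass (0.55 ± 0.18, adjusted p = 0.056). Nor did the sensor gene Zbp1 at 3.47, 7.39, 5.03 and 3.23 CPM (0.66 ± 0.22, adjusted p = 0.0566). Parp14 (0.36 ± 0.11), Xaf1 (0.61 ± 0.19) and Dhx58 (0.54 ± 0.15) completed the list of those that rose, with calls lost in 9, 8 and 5 of 18 alternative fits. The class medians were 0.17 for type I and 0.14 for interferon-gamma, a difference of 0.03 that ran from -0.03 (without Y665H male 2) to 0.14 (without Y665H male 1) and was 0.28 with the share of reads in no annotated gene as a covariate.

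The number of genes that passed changed with the animals in the fit. Without Y665H male 2, 3 of the 42 genes passed, and without Y665H male 3, 5 did. Without WT male 3, and likewise without WT male 4, 6 passed, and without Y665H male 4 the number was 14. The share of reads in no annotated gene was lower in every Y665H male (11.9% to 15.9%) than in any WT male (17.3% to 19.8%), so this share and the substitution cannot be told apart. With the share as a covariate 2 genes passed, Psmb8 (0.48, adjusted p = 0.0348) and Oas2 (0.72, adjusted p = 0.0347), while Psmb9 was at 0.41, Tap1 at 0.32, Irf7 at 0.48 and Usp18 at 0.72 on the log2 scale. The Kupffer cell and macrophage markers summed to 313 to 418 CPM in Y665H males against 208 to 311 CPM in WT males, with 2 of 10 risen, and the sum of the T and NK cell list overlapped (2.95 to 5.66 CPM). Within that list the NK cell receptor Klrb1c fell, without overlap (-1.45 ± 0.33, adjusted p = 0.00551). The monocyte list marker Itgam (0.73 ± 0.20, adjusted p = 0.0168) and the neutrophil marker Elane (2.53 ± 0.79, adjusted p = 0.0408) rose, the latter from 0 to 0.0600 CPM in WT males to 0.0735 to 0.200 CPM. The 5 endothelial markers summed to 194 to 248 CPM in Y665H males and 268 to 301 CPM in WT males, without overlap. By edgeR 0 of the 5 passed, and Stab2, Clec4g and Kdr, all lower, had an unadjusted p under 0.05. The part of these cells in the result was not tested.

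In females Y665H was compared with WT in 6 animals each. No gene of the set passed the test in Y665H females, by edgeR, by DESeq2 or by limma-voom. A single gene, Irf1 (0.27 ± 0.12, adjusted p = 0.142), had an unadjusted p under 0.05 by edgeR. Of all genes tested 4.4% rose and 3.1% fell, 1136 of 15152 together. With these 2 groups fitted alone the number over all genes was 80 of 13609, and 0 for the interferon genes. Zbp1 ran from 5.22 to 14.2 CPM (median 9.58) in Y665H females against 10.3 to 14.4 CPM (median 10.9) in WT females, and Gbp3 from 8.74 to 22.3 CPM (median 16.0) against 13.1 to 21.8 CPM (median 15.0). In both genes the Y665H females spread more widely than the WT females and overlapped them, and Y665H female 2 was the lowest. That library stood apart from its group: it was the lowest of the 6 for 33 of the 42 genes, and its class levels relative to WT females were -0.73 (type I) and -0.69 (interferon-gamma) on the log2 scale. It also had the lowest sums of its group for the T and NK cell (2.33 CPM), B cell (0.870 CPM), Kupffer cell and macrophage (212 CPM) and plasmacytoid dendritic cell (23.3 CPM) markers. Without it again 0 of the 42 genes passed by edgeR, with 1 at an unadjusted p under 0.05, Zbp1 was at -0.16 and Gbp3 at 0.10, and 442 of 15166 genes passed overall. Over the whole group, the T and NK cell list was lower in every Y665H female (2.33 to 4.45 CPM) than in any WT female (4.81 to 6.69 CPM), with 3 of 11 markers fallen, and its part in these values was not tested. With SE values between 0.0787 and 0.327 per gene on the log2 scale, small shifts were not detectable at this number of animals. The Y665H effect differed between the sexes in 3 genes, Tap1 (0.59 ± 0.16), Psmb8 (0.65 ± 0.17) and Psmb9 (0.69 ± 0.18), all higher in males, against 2.94% of all genes with a higher and 2.3% with a lower effect there, and none of the 3 passed without Y665H male 3.

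The substitutions were also compared directly. Between them, 24 of 42 genes were lower in Y665H males than in Y665F males and none was higher, against 21.2% lower and 20.5% higher among all genes. Without Y665F male 2, Usp18 passed as higher in Y665H males (0.41, adjusted p = 0.0409). Zbp1 (-1.69 ± 0.21), Cxcl9 (-1.63 ± 0.25), Tgtp1 (-1.47 ± 0.35) and Gbp2 (-1.40 ± 0.17) differed most. The antigen processing genes did not pass: Tap1 was at -0.02 ± 0.11, Psmb9 at -0.09 ± 0.13 and Psmb8 at -0.19 ± 0.12. A value of that size with its SE does not show that the substitutions act alike on them. In females 11 genes were lower in Y665H and 8 higher, against 26% lower and 30.5% higher among all genes. Lower were Gbp4 (-1.24 ± 0.20), Oas2 (-1.13 ± 0.20) and Zbp1 (-1.01 ± 0.19) by the widest margins, and higher were Usp18 (0.95 ± 0.18), Ifi44 (0.81 ± 0.27) and Isg15 (0.68 ± 0.22). With the share of reads in no annotated gene as a covariate, 10 genes were lower and 3 higher in Y665H females. These comparisons share animals with those against WT. The T and NK cell list summed to 2.95 to 5.66 CPM in Y665H males and 8.77 to 20.6 CPM in Y665F males. In females it summed to 2.33 to 4.45 CPM and 12.1 to 16.4 CPM. The B cell and monocyte lists were also lower in Y665H livers of both sexes without overlap, while the Kupffer cell and macrophage lists overlapped. The part of these cells in the differences between the substitutions was not tested.

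The wider pathway was read from a list of 143 further genes, 126 of which had enough counts. The list was chosen with earlier results of these data known, so its shares beside those of all genes are a description only. In Y665F males 89 of them rose (70.6%) and 3 fell (2.38%), against 27.2% and 25.3% of all genes. In Y665F females 35 rose (27.8%) and 22 fell (17.5%), against 17.8% and 23.3%. In Y665H males 25 rose (19.8%) and 1 fell, against 5.22% and 3.18%. These list calls come from the main edgeR fit alone, and no alternative fit was summarised for them. With the share of reads in no annotated gene as a covariate, genes called in Y665H males fell from 1273 to 543 of all 15152. In Y665H females none rose and 6 fell (4.76%), near the 3.1% of all genes. The list includes Il12a, Il12b and other genes too low to test.

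Interferon ligands were close to absent from the counts. Ifnb1, Ifna1, Ifna2, Ifna4, Ifna5, Ifne, Ifnl2 and Ifnl3 had 0 counts in all 37 libraries, and Ifna13 at most 1 count in a library. Male livers had 0 to 2 (WT), 1 to 9 (Y665F) and 1 to 3 (Y665H) counts of Ifng, and female livers 0 to 3, 0 to 5 and 0 to 2, too few to test. Ifnk, Il18 and Il27 could be tested, and of these only Il18, an inducer of interferon-gamma, passed, lower in Y665F females (-0.36 ± 0.10, adjusted p = 0.00438). A low count in whole liver does not show that no cell made the ligand.

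Of the 9 receptor and kinase genes 4 rose in Y665F males (44.4%, against 27.2% of all genes) and none fell. Tyk2, the kinase bound to IFNAR1, ran from 35.0 to 37.1 CPM (median 35.8) in WT males and from 43.1 to 49.3 CPM (median 47.0) in Y665F males, with no overlap (0.38 ± 0.05, adjusted p = 1.29e-08). Ifngr2 ran from 16.6 to 19.4 CPM and from 20.3 to 25.7 CPM, also apart (0.36 ± 0.06). Ifngr1 (0.35 ± 0.07) and Il10rb (0.37 ± 0.11) rose, whereas Ifnar1 (0.00 ± 0.05), Ifnar2 (-0.02 ± 0.06), Jak1 (-0.11 ± 0.05) and Jak2 (-0.01 ± 0.06) did not pass. In Y665F females only Jak1 (-0.29 ± 0.06) and Ifnar1 (-0.17 ± 0.06) of the 9 fell and none rose. Of all genes tested, 23.3% fell and 17.8% rose there, so the number that fell was near the share of all genes. Ifngr2 also rose in Y665H males (0.35 ± 0.07, adjusted p = 0.00237), at 20.6 to 24.1 CPM, and Tyk2 fell in Y665H females (-0.24 ± 0.05, adjusted p = 0.00482).

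The highest fold changes of the list in Y665F males were those of Ccl5, a T cell chemokine (2.42 ± 0.21), Slfn1 (2.13 ± 0.22) and Oas3 (1.95 ± 0.21). Ccl5 ran from 0.222 to 0.470 CPM (median 0.278) in WT males and from 1.21 to 2.91 CPM (median 1.49) in Y665F males, with no overlap. The 3 that fell were Socs3 (-0.80 ± 0.30), an inhibitor of cytokine receptors, F830016B08Rik (-0.49 ± 0.10) and Gm4951 (-0.20 ± 0.07). In Y665F females the top was Ccl5 (1.49 ± 0.22), Gbp8 (1.42 ± 0.23) and Slfn1 (1.42 ± 0.25), and the bottom Apol9b (-0.72 ± 0.15), Ube2l6 (-0.61 ± 0.11), an ISG15-conjugating enzyme, and H2-K1 (-0.58 ± 0.08), a class I heavy chain. In Y665H males Ifi27 (0.98 ± 0.13), the adhesion gene Icam1 (0.93 ± 0.12) and Ifi27l2a (0.75 ± 0.23) stood highest, and Ptpn2 (-0.28 ± 0.09), a phosphatase that acts on JAK and STAT proteins, was the only one that fell.

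Of the 17 tested antigen presentation genes 14 rose in Y665F males (82.4%, against 27.2% of all genes), and in Y665F females 5 rose and 5 fell (29.4% each, against 17.8% and 23.3%). The class II genes H2-Aa, H2-Ab1 and H2-Eb1 and the invariant chain Cd74 rose in Y665F livers of both sexes, by 0.86 to 1.03 on the log2 scale in males and by 0.60 to 0.78 in females. Cd74 ran from 23.9 to 57.0 CPM in WT males and from 63.4 to 105 CPM in Y665F males, with no overlap. All 4 tested class I genes of the H2 locus rose in Y665F males, H2-Q4 by 0.68 ± 0.08, H2-T23 by 0.48 ± 0.09, H2-K1 by 0.18 ± 0.07 and H2-D1 by 0.18 ± 0.07. In Y665F females H2-K1 (-0.58 ± 0.08) and H2-D1 (-0.40 ± 0.08) fell, and H2-Q4 (-0.05 ± 0.09) and H2-T23 (-0.03 ± 0.09) did not pass. The common light chain B2m fell in Y665F females (-0.28 ± 0.07). H2-K1 ran from 1200 to 1483 CPM in WT females and from 748 to 1041 CPM in Y665F females, and these groups did not overlap. Class II genes are marks of antigen-presenting cells such as B cells, whose marker list was higher in Y665F livers of both sexes, and the part of those cells was not tested.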

How the data were processed

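Liver total RNA of 37 mice was sequenced after ribosomal RNA removal, per the labels' protocols. The deposited files hold raw counts per gene, not normalized by the authors, as whole numbers with unequal totals show. The submitters' processing notes name FastQC 0.11.9, Trimmomatic 0.36, STAR, SAMtools 1.9, Picard 2.9.2, HTSeq 0.9.1 and build mm10. The strand setting and annotation are not given in the sources used here. The 5 rows that name no gene, which include reads of more than 1 place, took 32.4% to 49.95% of each file and were left out.

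The analysis used edgeR 4.0.16 under R 4.3.3 (filterByExpr by group with minimum count 10 and minimum total 15, TMM, glmQLFit and glmQLFTest). A single model, with each group's mean as a term, took all 37 libraries, with Benjamini-Hochberg adjustment over 15152 genes and a threshold of 0.05. SE values were derived from fold changes and F statistics, and class levels use log2 CPM with a prior count of 2. The script was tested on simulated data. Alternatives were DESeq2 1.42.0, limma-voom (limma 3.58.1), RLE scaling, no filter, the compared groups alone, a replicate block, the no-gene share as a covariate, thinned counts and each library left out.

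The genes, classes, pathway list and marker lists were chosen with earlier results of these data known. Values per liver are given for the genes with the highest and lowest fold change of each role in Y665F males, Y665F females and Y665H males, and further genes by fold change. Pathway genes named are the ligands, receptors and kinases and the 3 highest and 3 lowest that passed, and some further named genes (MHC genes, cell markers, Cxcl9) were chosen after their values were seen. Promoters shown are those of the highest gene of each class in the RefSeq table and others with the motifs. Exon lengths are GENCODE M21. Gbp6 shares 29% of its exon bases with Gm43302, and Psmb8 14.7% with the antisense Gm20496, so their counts are uncertain. No library was identical to another.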

Additional observations from a re-analysis of the deposited data

Results flagged for a closer look

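A gap test for a single liver far from the rest of its group (Dixon's ratio at its 95% value, in groups of 4 to 10) was run on 270 sets of values and marked 20, or 7.4 per 100, where chance marks about 1 in 20. Of these, 8 were in Y665F male 2, the highest of its group for Oas1a (8.944 CPM), Oas2 (16.76), Mx1 (4.969), Ifi44 (13.22), Usp18 (20.04), Xaf1 (9.176), Trim30a (22.38) and Dhx58 (16.86). WT female 4 stood apart for Isg15 (15.81 CPM), Ifi44 (7.869) and Zbp1 (14.4), and Y665H female 3 for Ifit1 (17.39 CPM), Isg15 (21.87) and Xaf1 (7.824). Y665H male 2 stood apart for Ifit3 (12.95 CPM) and Rsad2 (11.08), Y665F female 4 for Gbp2 (9.258 CPM) and Tgtp1 (4.299), and Y665F male 6 for Cxcl9 (31.18 CPM). Y665H male 4 was the lowest of its group for the interferon-gamma class, at -0.176 on the log2 scale relative to the WT male mean.

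The Y665F effect was higher in males than in females, by the edgeR test of the difference itself, in 29 genes. On the log2 scale the transcription factor Irf7 differed by 0.674. In the type I class Ifit1 differed by 1.246, Ifit3 by 0.888, Oas1a by 0.968 and Oasl2 by 0.693. Among effectors Isg15 differed by 1.229, Ifi44 by 2.01, Rsad2 by 1.049, Usp18 by 1.225, Bst2 by 0.538, Parp14 by 0.688, Xaf1 by 0.84 and Trim30a by 0.575. Among sensors Ddx58 differed by 0.455, Dhx58 by 0.639 and Zbp1 by 1.616. In the interferon-gamma class the values were 0.968 for Gbp2, 1.898 for Gbp3, 0.844 for Gbp6, 1.096 for Gbp7, 1.728 for Igtp, 0.762 for Irgm1, 1.021 for Irgm2, 0.498 for Iigp1, 1.105 for Ifi47, 2.247 for Tgtp1 and 1.475 for Cxcl9. Psmb8 differed by 0.729 and Psmb9 by 0.56. The Y665H effect differed between the sexes for Tap1 (0.592), Psmb8 (0.646) and Psmb9 (0.687).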

How the results depend on the processing

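No call changed direction under any alternative. With the replicate number as a block, 5 genes passed in Y665H males against 11 without it, and the other counts were 37 (Y665F males), 12 (Y665F females), 24 and 19 (Y665H against Y665F, males and females), 30 (WT by sex), 28 and 4 (Y665F and Y665H effects by sex). Of 80 same-numbered pairs of libraries in different groups, 6 had correlated deviations over 0.1. Within a sex, 5 of 37 libraries correlated best with their own number in another group. No chance level was computed for these counts, so they do not settle whether the numbers pair animals. The check also does not reach animals with different numbers. With the share of reads in no annotated gene as a covariate, 2 genes passed in Y665H males, 16 in WT by sex and 6 for the Y665H effect by sex, and the type I minus interferon-gamma median was 0.214 in Y665F females and 0.279 in Y665H males, from 0.403 and 0.031. Fitting the compared groups alone, or thinned libraries, gave 7 in Y665H males, and DESeq2 gave 7 for the Y665H effect by sex. The cause was not tested.

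A log2 fold change of at least 1, a stricter rule by construction, left 13 genes in Y665F males, 1 in Y665F females, 0 in Y665H males, 12 and 3 between the substitutions in males and females, 6 in WT by sex, 13 for the Y665F and 0 for the Y665H effect by sex. Leaving out 1 library gave 35 to 40 genes for Y665F males, 11 to 15 for Y665F females, 3 to 14 for Y665H males, 0 to 0 for Y665H females, 23 to 32 and 15 to 19 between the substitutions, 27 to 31 in WT by sex, 28 to 30 and 0 to 6 for the effects by sex. The class median difference then ran from -0.145 to -0.043, 0.353 to 0.45, -0.03 to 0.137 and 0.002 to 0.126 in the same order of groups. The Y665H effect by sex fell to 0 genes without Y665H male 3 and rose to 6 without Y665H male 1 or 4. In Y665F males the SE of the log2 fold change ran from 0.0714 (Ddx58) to 0.295 (Tgtp1).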
